A study of Mus musculus with 6 samples.

Results

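Calcineurin, its RCAN regulators and the NFAT transcription factors are described here by 10 genes of the 54532 in a mouse RNA sequencing table. The members are Ppp3ca, Ppp3cb, Ppp3cc and Ppp3r1, which encode the phosphatase itself, Rcan1, Rcan2 and Rcan3, which encode its regulators, and Nfatc1, Nfatc3 and Nfat5. They were taken by gene name, each name matched 1 row, and all 10 have the same position in the GENCODE M21 annotation (GRCm38) as in the table. The names were chosen by membership of the calcineurin and NFAT pathway and selected on the FPKM levels and the knockdown and control values of these same libraries, which were known at the time, with no numeric threshold. Hence the differences between groups given for the members are a description and not a test. Libraries labelled PP2Ac knockdown (titled sh2, n = 3) were set against libraries labelled control (titled shc, n = 3). Both groups are labelled MIN6, an insulinoma-derived mouse beta cell line, although the labels' RNA protocol speaks of tissues frozen before extraction, so the labels conflict on the starting material. PP2Ac is the catalytic subunit of protein phosphatase 2A. The labels do not say how the knockdown was made, whether either group is 1 clone or whether replicates are separate cultures, so every error and p-value measures the spread between these libraries only, which may be technical. No lipid treatment is named for any library.

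Calcineurin is the calcium- and calmodulin-dependent serine/threonine phosphatase also called protein phosphatase 2B, a relative of PP2A. It is a dimer of a catalytic A subunit, encoded by Ppp3ca, Ppp3cb or Ppp3cc, and a calcium-binding B subunit, encoded in most tissues by Ppp3r1. When calcium rises it removes phosphates from the cytoplasmic NFAT factors, which then enter the nucleus, and kinases return them to the cytoplasm. RCAN proteins bind and restrain calcineurin, and the short RCAN1 form is itself switched on by NFAT, a feedback loop. NFAT5 has a related DNA-binding domain but lacks the calcineurin-docking region and responds mainly to hypertonic stress. In beta cells calcineurin and NFAT are known to support proliferation and insulin gene expression, and the drugs tacrolimus and ciclosporin, which block calcineurin, can cause diabetes.

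The regulatory sequences bear directly on Rcan1, because RefSeq gives it a distal start and an internal start. The internal one makes the NFAT-inducible short form. GENCODE M21 also lists coding Rcan1 transcripts that start at 92458475 and, farther upstream than the distal window, at 92470867. The RefSeq promoter windows (GRCm38.p6) cover the distal and the internal start only, so the other GENCODE starts were not searched. The 250 bases before the distal and the internal start are shown, 5′ to 3′ on the minus strand. Matches to the NFAT core GGAAA, to the AP-1 motif TGACTCA and to the cAMP response element TGACGTCA are in capitals, on either strand. The distal window is chr16:92466170-92466419 and the internal window is chr16:92400079-92400328.
Rcan1 distal: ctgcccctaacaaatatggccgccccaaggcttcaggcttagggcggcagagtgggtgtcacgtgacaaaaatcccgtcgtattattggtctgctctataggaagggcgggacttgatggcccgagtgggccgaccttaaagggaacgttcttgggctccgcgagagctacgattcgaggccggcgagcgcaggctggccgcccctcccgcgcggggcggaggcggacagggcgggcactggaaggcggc
Rcan1 internal: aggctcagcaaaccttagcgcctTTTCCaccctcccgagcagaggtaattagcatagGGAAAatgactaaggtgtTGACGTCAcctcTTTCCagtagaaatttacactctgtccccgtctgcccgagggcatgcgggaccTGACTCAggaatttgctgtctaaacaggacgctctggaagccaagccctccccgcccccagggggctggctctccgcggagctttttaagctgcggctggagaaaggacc
The distal window held 24 CG pairs and none of the 3 motifs. The internal window held 11 CG pairs, 3 NFAT cores at 227 to 223, 193 to 189 and 163 to 159 bases before the start, 1 cAMP response element at 175 to 168 and 1 AP-1 motif at 110 to 104, and no matches shared a base. Among the 250-base windows of all 32851 RefSeq promoters, 55.6% held at least 1 NFAT core, 6.39% at least 3, 4.46% the AP-1 motif and 1.55% the cAMP response element, while 6 windows held all 3 motifs. The motifs were chosen with these windows already seen, and a match shows letters, not binding. Of the 10 members 7 had an entry, with 11 windows in all, of which 6 held an NFAT core. Ppp3cb had 3 cores, Nfat5 had 2, Rcan3 had 1, and the Ppp3r1 window had none. Ppp3ca, Ppp3cc and Nfatc1 had no entry. The expression table is by gene, so reads from the distal and the internal Rcan1 start were not separated.

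Gene expression was given as FPKM, which divide the reads of a gene by its length and by the depth of the library, and 14614737 to 16030939 reads per library were recovered from them. Ppp2ca, a gene of PP2Ac, was 10.1, 11.4 and 10.9 FPKM in knockdown libraries and 42.5, 34.6 and 35.6 FPKM in control libraries. The log2 difference was -1.70 (SE 0.0917, limma adjusted p = 5.35e-06, two-sided exact permutation p = 0.1, the smallest that 3 against 3 allow). Mitochondrial mRNAs took 1.23% to 1.34% of reads in knockdown libraries and 2.65% to 3.38% in control libraries. Beta cell identity transcripts were absent or low: Ins1, Ins2, Nkx6-1 and Slc2a2 had no read in any library, and 6 of 8 beta cell markers averaged below 1 FPKM. The lack of insulin reads does not match the label of a beta cell line, and the identity of the cells was not tested. The 8 markers summed to 8.16 to 9.78 FPKM in knockdown and 2.91 to 4.63 FPKM in control. Nearly all of it came from Pdx1 and Mafa, which were both higher in knockdown. Some markers of other cell types also differed between the groups. The 4 stromal markers summed to 126 to 142 FPKM in knockdown and 16.1 to 19.6 FPKM in control, with all 4 past the threshold and none at 0. Of the other lists, 4 immune markers, with Cd3e at 0, summed to 2.77 to 3.35 FPKM in knockdown and 14.4 to 21.4 FPKM in control. Only Cd68 averaged at least 1 FPKM, at 2.27 FPKM in knockdown and 16.5 FPKM in control. Cd79a went the other way, at 0.706 FPKM in knockdown and 0.342 FPKM in control, and Ptprc was near 0. The 3 neuron markers, with Snap25 at 0, summed to 4.19 to 4.75 FPKM in knockdown and 1.57 to 2.04 FPKM in control, where all of it was Tubb3. The 3 muscle markers summed to 2.36 to 2.97 FPKM in knockdown and 1.48 to 1.67 FPKM in control, and only Tnnt2 averaged at least 1 FPKM; Acta1 averaged 0.0854 FPKM in knockdown and 0.162 FPKM in control. The 5 acinar and duct markers, with Prss1 and Amy2b at 0, summed to 1.40 to 1.92 FPKM in knockdown and 7.85 to 7.95 FPKM in control. Sox9 made up all of that sum in control and nearly all of it in knockdown, where Cpa1 and Krt19 had 2 reads and 1 read in all. The 3 endothelial markers were near 0, and Gcg, Sst and Ppy had no read. The part of these shifts in the values below was not tested, and in bulk RNA fewer cells of a type and less RNA per cell cannot be told apart.

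The calcineurin system shifted unevenly: catalytic transcripts were lower in knockdown and the B subunit was not past the threshold. Rcan1, Nfatc1 and Nfatc3 were higher in knockdown, and Nfat5 was lower. Of the 10 members 9 averaged at least 1 FPKM over the 6 libraries and entered the limma fit on log2(FPKM + 1). Past an adjusted p of 0.05 were 7 of the 9, 3 higher and 4 lower, while over all 11652 genes in the fit 62.4% were past it, 33.3% higher and 29.1% lower. The groups did not overlap for 8 of the 9 members, 3 higher and 5 lower, and for 68.1% of all genes, 36.4% higher and 31.7% lower. A log2 difference of 1 or more in either direction was seen for 2 of the 9, Ppp3ca and Nfat5, and for 9.86% of all genes. The median log2 difference was -0.10 over the 9 members and 0.03 over all genes. Because these values were known when the names were chosen, nothing is read from the counts.

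**Figure D1:**
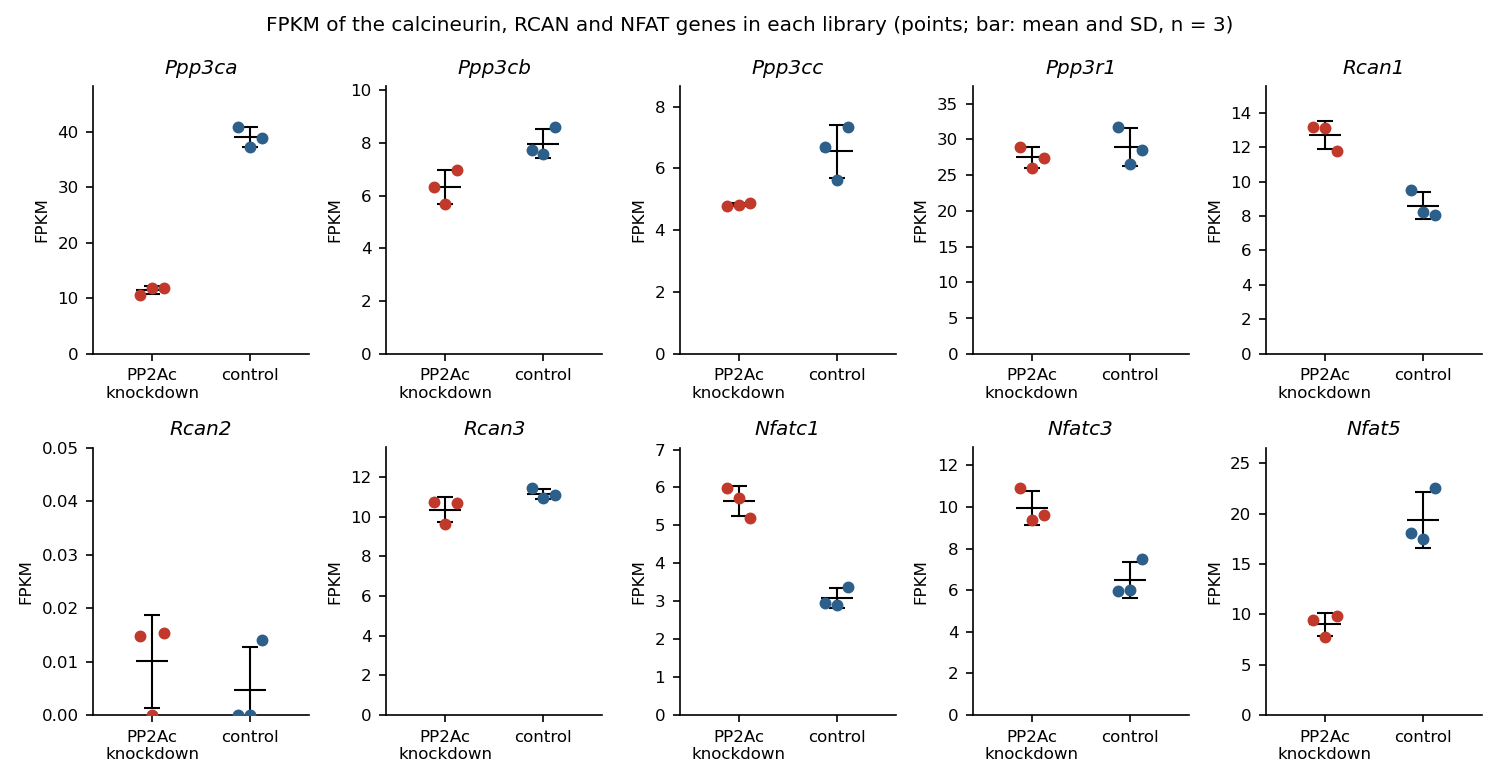
FPKM of the 10 members in each library, PP2Ac knockdown left and control right, with mean and SD (n = 3). The Ppp3ca points sit at 10.6 to 11.9 in knockdown and 37.3 to 40.9 in control, Rcan1, Nfatc1 and Nfatc3 are higher in knockdown, and the Ppp3r1 groups overlap; each panel has its own axis from 0.

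Ppp3ca, which encodes the alpha catalytic subunit, had the largest difference of the members. It lies on chromosome 3 (ENSMUSG00000028161, chr3:136670124-136937727, plus strand, GRCm38). It was 10.6, 11.8 and 11.9 FPKM in the knockdown libraries and 40.9, 37.3 and 38.9 FPKM in the control libraries. All knockdown libraries were far below all control libraries. The means were 11.4 ± 0.719 FPKM in knockdown and 39.1 ± 1.79 FPKM in control (SD, n = 3). Knockdown stood at 29.3% of control, a log2 difference of -1.69 (SE 0.0726). In ascending order of log2 difference it stood at position 107 of the 11652 genes. The PP2Ac gene Ppp2ca stood at position 105, with 28.7% of its control level. The ratio of Ppp3ca to Ppp2ca FPKM was 1.06 ± 0.0263 in knockdown and 1.05 ± 0.0725 in control (SD, n = 3), with overlapping groups. The reads behind Ppp3ca were 1636, 1809 and 1768 in knockdown and 6530, 5778 and 6381 in control.

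The other catalytic genes were lower by less. Ppp3cb, which encodes the beta catalytic subunit (chr14:20499364-20546573, minus strand), was 6.31, 5.69 and 6.98 FPKM in knockdown and 7.72, 7.60 and 8.62 FPKM in control, a log2 difference of -0.30 (SE 0.0888). The highest knockdown library was below the lowest control library, but the gap was smaller than the range within either group. This gene was no longer past the threshold without knockdown replicate 1, without knockdown replicate 2 or without control replicate 3. Ppp3cc, which encodes the gamma subunit, best known from testis, lies on the same chromosome (chr14:70217865-70289471, minus strand). It was 4.77, 4.81 and 4.87 FPKM in knockdown and 6.68, 5.64 and 7.35 FPKM in control, a log2 difference of -0.37 (SE 0.0945). The knockdown libraries lay close together, and the control libraries were all higher and more scattered. Ppp3cc rested on the fewest reads of the catalytic genes, 217 to 220 in knockdown and 261 to 360 in control.

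The makeup of the catalytic transcripts therefore differed between groups. Per length, Ppp3ca made up 48.9%, 53.0% and 50.0% of the summed FPKM of the catalytic genes in knockdown and 74.0%, 73.8% and 70.9% in control. The Ppp3cb share was 28.0% ± 2.21 in knockdown and 14.9% ± 0.873 in control, and the Ppp3cc share 21.4% ± 0.745 in knockdown and 12.2% ± 1.12 in control (SD, n = 3). The sum was 21.7, 22.3 and 23.7 FPKM in knockdown and 55.3, 50.5 and 54.9 FPKM in control, so 42.1% of the control level was present. Ppp3cb and Ppp3cc took larger shares in knockdown although their own levels were lower. In reads, without scaling for length, Ppp3ca made up 61.9% ± 2.41 in knockdown and 81.3% ± 1.23 in control.

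**Figure D2:**
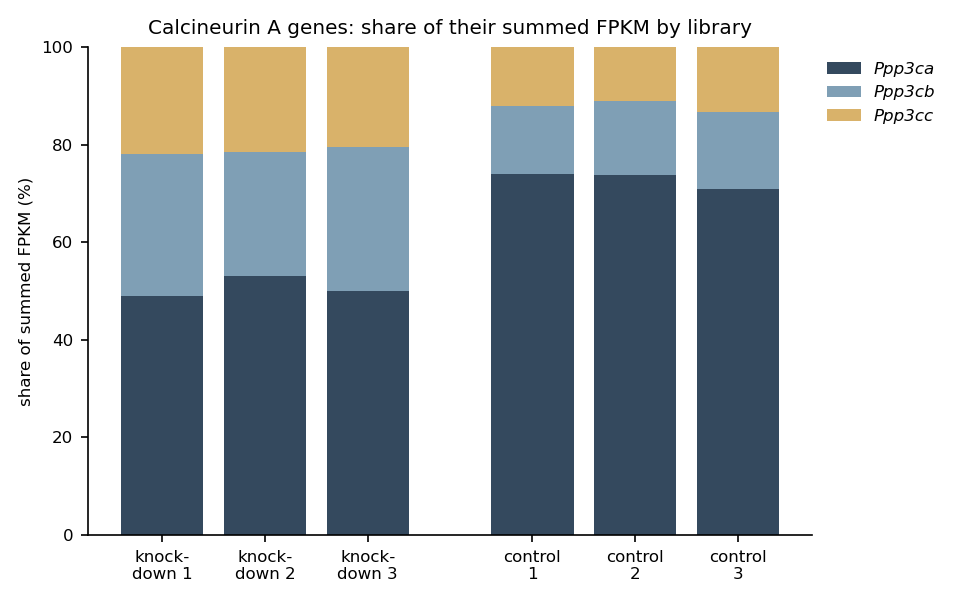
Share of Ppp3ca, Ppp3cb and Ppp3cc in their summed FPKM, 1 bar per library, knockdown left and control right. Ppp3ca takes 48.9% to 53.0% of each knockdown bar and 70.9% to 74.0% of each control bar.

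Ppp3r1, which encodes the B subunit that every A subunit needs for activity (chr11:17159263-17200375, plus strand), had the smallest difference of the 9 members. Its FPKM were 29.0, 26.1 and 27.4 in knockdown and 31.8, 26.6 and 28.5 in control, and the groups overlapped. The log2 difference was -0.07 (SE 0.0827), not past the threshold. The ratio of summed catalytic FPKM to Ppp3r1 FPKM was 0.747, 0.857 and 0.864 in knockdown and 1.74, 1.90 and 1.93 in control. The ratio is of transcripts and not of protein. Wdr92 overlaps Ppp3r1 on the same strand, with 6.62 FPKM in knockdown and 7.98 FPKM in control, so some reads of either gene may have been split or lost.

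Of the RCAN genes in the fit, Rcan1 was past the threshold and Rcan3 was not. Rcan1 (chr16:92391953-92470867, minus strand) is the feedback inhibitor whose RefSeq promoter windows are shown above. It was 13.2, 13.1 and 11.8 FPKM in knockdown and 9.52, 8.23 and 8.06 FPKM in control. Every knockdown library was above every control library. Its means were 12.7 ± 0.799 FPKM in knockdown and 8.60 ± 0.801 FPKM in control (SD, n = 3), a log2 difference of 0.51 (SE 0.0843). Rcan3 (chr4:135412308-135433853, minus strand), a less studied inhibitor, was 10.7, 9.65 and 10.7 FPKM in knockdown and 11.4, 10.9 and 11.1 FPKM in control. The groups did not overlap, but the log2 difference was -0.10 (SE 0.0693) and not past the threshold. Rcan2 (chr17:43801351-44039516, plus strand), known from brain and muscle, had 1, 0 and 1 reads in knockdown and 0, 0 and 1 reads in control. At this depth 3 reads would have given at most 0.0459 FPKM, so no Rcan2 difference was detectable; such limits cover counting error only.

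Rcan1 and Rcan3 exchanged order between the groups. The ratio of Rcan1 to Rcan3 FPKM was 1.23, 1.36 and 1.10 in knockdown and 0.834, 0.754 and 0.728 in control. Summed RCAN FPKM were 23.1 ± 0.755 in knockdown and 19.7 ± 1.04 in control (SD, n = 3). Set over the summed catalytic FPKM, RCAN transcripts came to 1.10, 1.02 and 0.949 in knockdown and 0.379, 0.379 and 0.349 in control, 2.78-fold higher on average in knockdown. The RCAN sum itself was 1.17-fold higher in knockdown. The 5 protein-coding genes whose log2 values followed Rcan1 most closely over the 6 libraries, among 7225 with a mean of at least 5 FPKM, were Ncoa5, Ino80e, Cbarp, 1110012L19Rik and Pheta1, with Pearson r of 0.996 to 0.998. Such r mostly restate the difference between the groups, since 1776 genes had an r above 0.9.

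The calcium-responsive NFAT genes among the members were higher in knockdown. Nfatc1, the NFAT factor of heart valve and osteoclast development (chr18:80606205-80713071, minus strand), was 5.98, 5.73 and 5.21 FPKM in knockdown and 2.95, 2.90 and 3.38 FPKM in control, a log2 difference of 0.70 (SE 0.0871). Nfatc3, broadly expressed and known from thymocytes and muscle (chr8:106058840-106130537, plus strand), was 10.9, 9.37 and 9.62 FPKM in knockdown and 5.98, 6.02 and 7.48 FPKM in control, a log2 difference of 0.55 (SE 0.0993). For both genes the groups were apart, and for Nfatc3 control replicate 3 stood nearest to the knockdown libraries. Summed, both genes came to 15.6 ± 1.11 FPKM in knockdown and 9.57 ± 1.12 FPKM in control (SD, n = 3). Nfatc3 held most of that sum in both groups, 63.8% ± 1.55 in knockdown and 67.8% ± 1.01 in control.

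Nfat5, the tonicity-responsive factor, went the other way. It lies on the same chromosome as Nfatc3 (chr8:107293470-107379517, plus strand). Its FPKM were 9.45, 7.71 and 9.83 in knockdown and 18.1, 17.4 and 22.5 in control. All knockdown libraries were well below all control libraries, and control replicate 3 was the highest. The SD was 1.13 FPKM in knockdown and 2.76 FPKM in control (n = 3), and the knockdown mean was 46.5% of the control mean, a log2 difference of -1.02 (SE 0.118). The ratio of Nfat5 to Nfatc3 FPKM was 0.867, 0.823 and 1.02 in knockdown and 3.02, 2.90 and 3.01 in control.

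**Figure D3:**
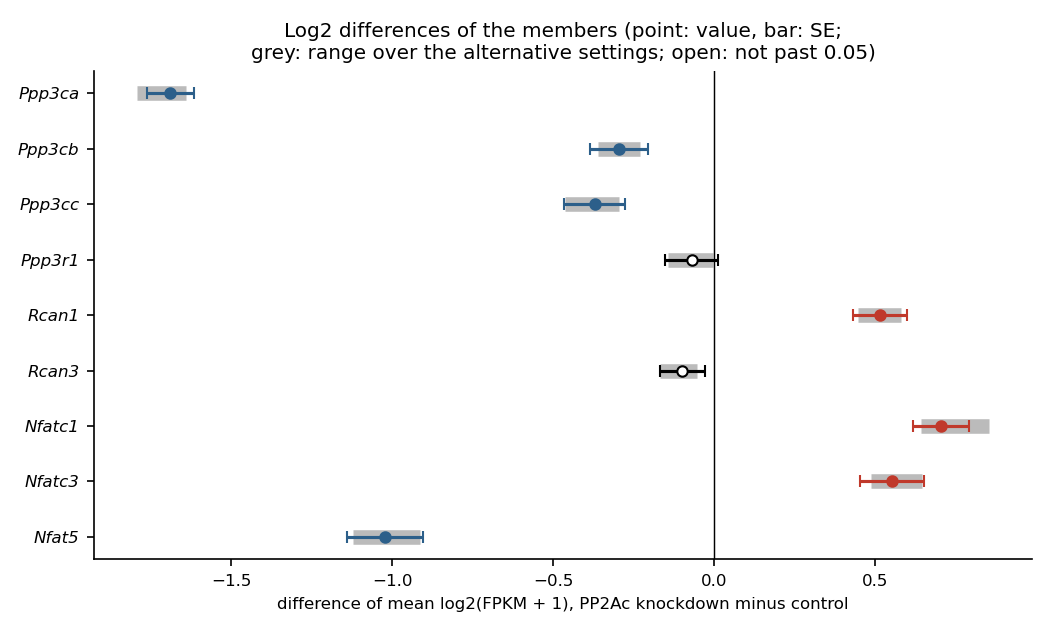
Log2 differences of the 9 members in the fit, PP2Ac knockdown minus control, with SE bars; grey bands span the alternative settings and open points were not past the threshold. Ppp3ca (-1.69) and Nfat5 (-1.02) lie farthest left, and Nfatc1 (0.70) lies farthest right.

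In order of mean FPKM, the knockdown libraries had Ppp3r1 first, then Rcan1, Ppp3ca, Rcan3, Nfatc3, Nfat5, Ppp3cb, Nfatc1, Ppp3cc and Rcan2. The neighbours from Rcan1 to Nfat5 overlapped in their library values, as did Ppp3cb and Nfatc1. In control the order was Ppp3ca, Ppp3r1, Nfat5, Rcan3, Rcan1, Ppp3cb, Ppp3cc, Nfatc3, Nfatc1 and Rcan2, with overlap between Rcan1 and Ppp3cb and between Ppp3cc and Nfatc3. Ppp3ca was the most abundant member per length in control and not in knockdown.

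The rest of the family was low. Nfatc4, an NFAT factor of heart and nervous system, was 0.757, 0.956 and 0.876 FPKM in knockdown and 0.0215, 0 and 0.0524 FPKM in control. These values came from 229 reads in all in knockdown and 7 in control, a ratio of levels of 34.3 (exact 95% counting interval 16.4 to 86.3). All knockdown libraries were above all control libraries, but the mean over the 6 libraries was under the minimum of 1 FPKM and the gene was outside the fit. Fitted with no filter on low values, its log2 difference was 0.86 (SE 0.0669, limma adjusted p = 0.000586). That value is on log2(FPKM + 1), which understates the fold change of a gene this low, so it is far below the ratio of levels. Nfatc2, a main NFAT factor of T cells, had 14 reads in all in knockdown and 8 in control, a ratio of 1.83 with a counting interval of 0.718 to 5.05. Both intervals cover counting error in the pooled reads only, not the spread between libraries. Ppp3r2, the testis form of the B subunit, had no read in any library.

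Upstream of calcineurin, calcium entry and store genes went both ways. Calm3, a calmodulin gene, rose, at 168, 189 and 168 FPKM in knockdown and 102, 99.9 and 95.8 FPKM in control (log2 difference 0.81, limma adjusted p = 5.04e-05). Calm2 averaged 177 ± 13.5 FPKM in knockdown and 197 ± 1.62 FPKM in control (SD, n = 3; log2 difference -0.15, limma adjusted p = 0.109). Of 11 tested genes of calcium entry and stores, 6 rose, 2 fell and 3 did not pass. The share past the threshold was 72.7%, against 62.4% of all genes, 33.3% higher and 29.1% lower. With mitochondrially encoded genes, rRNA and Gm23935 removed, 5 rose and 3 fell. Stim1, the calcium sensor of the endoplasmic reticulum, rose to 8.29 ± 0.511 FPKM in knockdown, against 3.54 ± 0.159 FPKM in control, and the store-operated channel gene Orai3 to 16.5 ± 1.51 FPKM in knockdown, against 8.01 ± 0.406 FPKM in control (SD, n = 3; limma adjusted p = 1.91e-05 and 3.80e-05). Atp2a3, a pump that loads the endoplasmic reticulum, fell to 1.25 ± 0.0410 FPKM in knockdown, against 12.7 ± 0.967 FPKM in control (limma adjusted p = 8.74e-07). Its more abundant relative Atp2a2 was not past the threshold (limma adjusted p = 0.0966). Atp2a2 averaged 88.9 ± 2.97 FPKM in knockdown and 97.6 ± 1.63 FPKM in control.

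Genes listed as scaffolds, anchors, immunophilins or calcineurin-binding inhibitors were counted in the same way. Of 15 genes 8 were tested, 6 rose, none fell and 2 did not pass, with a median log2 difference of 0.31. The share past the threshold was 75%, against 62.4% of all genes, 33.3% higher and 29.1% lower. With 1 library left out, 4 to 6 rose and none fell. Akap1, which anchors protein kinase A at the mitochondrial surface, rose to 19.7, 19.4 and 19.1 FPKM in knockdown, against 7.93, 8.69 and 9.10 FPKM in control (limma adjusted p = 1.07e-05). Chp1, a calcineurin B homologue, averaged 29.6 ± 1.07 FPKM in knockdown and 22.7 ± 2.10 FPKM in control (SD, n = 3; limma adjusted p = 0.00428). Homer3, a scaffold that competes with calcineurin for NFAT, averaged 16.4 ± 0.296 FPKM in knockdown and 13.4 ± 0.340 FPKM in control (SD, n = 3; limma adjusted p = 0.00470).

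NFAT kinases and transport genes went both ways. Of 16 tested kinases that phosphorylate NFAT or prime it, 7 rose, 3 fell and 6 did not pass, with a median of 0.08. Gsk3b, which rephosphorylates nuclear NFAT for export, fell to 9.36 ± 0.126 FPKM in knockdown, against 15.9 ± 0.666 FPKM in control, and Csnk1e, a casein kinase 1 gene, to 11.5 ± 0.453 FPKM in knockdown, against 19.4 ± 0.349 FPKM in control (SD, n = 3; limma adjusted p = 5.04e-05 and 4.83e-05). Prkaca, which encodes the protein kinase A catalytic subunit that primes NFAT for GSK3, rose to 75.4 ± 4.94 FPKM in knockdown, against 47.6 ± 2.22 FPKM in control (limma adjusted p = 0.000146). Of 9 tested nuclear transport and NRON complex genes, 2 rose, 4 fell and 3 did not pass, with a median of -0.02. The importin gene Kpnb1 averaged 109 ± 4.09 FPKM in knockdown and 83.3 ± 3.09 FPKM in control, and the proteasome lid gene Psmd11 20.3 ± 0.0984 FPKM in knockdown and 16.0 ± 0.271 FPKM in control (SD, n = 3; limma adjusted p = 0.00121 and 0.00154). Spag9, a kinase scaffold gene, fell to 6.61 ± 0.536 FPKM in knockdown, against 13.9 ± 1.23 FPKM in control (SD, n = 3; limma adjusted p = 4.92e-05).

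Downstream, other calcineurin substrates divided: 6 of the 11 tested rose, 2 fell and 3 did not pass. Tfeb, a lysosomal transcription factor that calcineurin activates, rose to 6.81, 7.38 and 5.73 FPKM in knockdown, against 2.36, 3.00 and 3.02 FPKM in control (limma adjusted p = 0.000132). Dnm1, which encodes dynamin 1, rose to 20.6 ± 1.83 FPKM in knockdown, against 11.4 ± 0.734 FPKM in control (limma adjusted p = 0.000105). Dnm1l, which encodes the mitochondrial fission protein DRP1, fell to 8.99 ± 1.39 FPKM in knockdown, against 19.1 ± 2.24 FPKM in control (SD, n = 3; limma adjusted p = 0.000166).

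**Figure D4:**
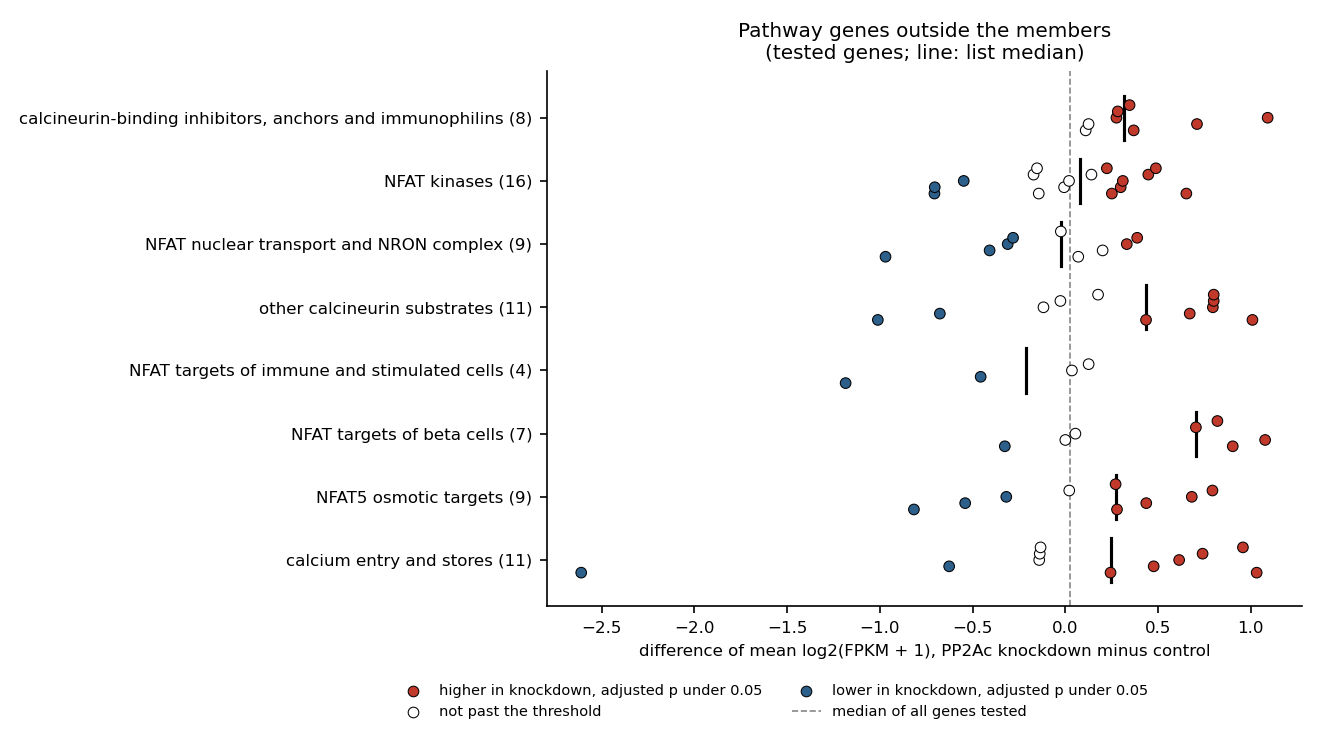
Log2 differences (PP2Ac knockdown minus control) of tested pathway genes that are not members, 1 row per list shown with the number tested in brackets; black lines are list medians and the dashed line is the median of all genes (0.03). Points lie on both sides of 0 in every list shown except the one of inhibitors, anchors and immunophilins. In that list the genes that passed the test are all higher.

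Known NFAT target genes did not move together. Of 16 targets of immune and stimulated cells only 4 were tested, with 0 higher, 2 lower and 2 not past the threshold; 4 of 12 were lower with no filter on low values. Ptgs2, the inducible cyclooxygenase gene, fell to 33.6, 30.2 and 37.4 FPKM in knockdown, against 85.6, 68.5 and 79.9 FPKM in control (limma adjusted p = 4.72e-05), and Myc to 41.8 ± 1.89 FPKM in knockdown, against 57.8 ± 0.632 FPKM in control (SD, n = 3; limma adjusted p = 0.000406). Nr4a1 averaged 9.57 ± 0.306 FPKM in knockdown and 8.69 ± 0.140 FPKM in control and was not past the threshold (limma adjusted p = 0.119). Of 7 tested targets of beta cells 4 rose, 1 fell and 2 did not pass. Mafa, an activator of the insulin genes, rose to 4.86 ± 0.854 FPKM in knockdown, against 1.78 ± 0.435 FPKM in control, and the cell cycle genes Foxm1 and Ccna2 to 67.0 ± 2.41 and 42.2 ± 2.89 FPKM in knockdown, against 37.8 ± 5.30 and 25.5 ± 1.97 FPKM in control (SD, n = 3; limma adjusted p = 0.000344, 0.000244 and 0.000164).

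NFAT5 osmotic targets were divided. Of 9 tested, 5 rose, 3 fell and 1 did not pass, with a median of 0.27; without control replicate 1, and with mitochondrially encoded genes, rRNA and Gm23935 removed, 3 were higher. Slc38a2, an amino acid transporter gene, fell to 79.8 ± 7.92 FPKM in knockdown, against 116 ± 2.72 FPKM in control, and the water channel gene Aqp1 to 5.68 ± 0.191 FPKM in knockdown, against 11.0 ± 3.15 FPKM in control (SD, n = 3; limma adjusted p = 0.000678 and 0.00242). Sgk1, a kinase gene of salt balance, rose to 11.9 ± 1.15 FPKM in knockdown, against 6.42 ± 0.324 FPKM in control (SD, n = 3; limma adjusted p = 0.000101). All list counts are to be read against the 62.4% of tested genes past the threshold. The share past it ran from 50.0% of the immune cell targets to 88.9% of the NFAT5 targets, in lists of 4 to 16 tested genes.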

How the data were processed

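Total RNA was taken with Trizol and made into TruSeq libraries, per the labels' protocols, and the genome builds are GRCm38 and mm10, per the submitters' processing notes. Which aligner, counter and strand setting were used is not given in the sources used here. Overlapping, antisense or near-identical genes may therefore share or lose reads. The authors deposited FPKM. Multiplied by gene length, 100% of the non-zero deposited values came within 0.01 of whole multiples of 1 step per library, which gave the reads. In 6 of 6 libraries the implied total matched, within 0.001%, a median-of-ratios size factor (15867 genes with reads in every library) times the geometric mean of the read totals, so the deposited values carry that scaling already.

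Genes with a mean of at least 1 FPKM were fitted with limma 3.58.1 (R 4.3.3, eBayes with trend) on log2(FPKM + 1), knockdown minus control, with Benjamini-Hochberg adjustment over all 11652; fold changes on this scale understate low genes. The limma code was tested on simulated data. limma voom on the recovered reads gave 3834 higher and 3544 lower genes. Members and pathway lists were chosen with earlier results of these data known. Named pathway genes are the 3 of each list with the smallest p, and all of the family genes outside the members; 1 gene that the rule names is not reported here. Replicates correlated at 0.986 to 0.989 across genes and differed beyond sampling noise (chi-square per degree of freedom 7.15 to 11.0), so none were merged.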

Additional observations from a re-analysis of the deposited data

How the results depend on the processing

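The alternatives were a pseudocount of 0.1, a mean of at least 5 FPKM, no filter, mitochondrially encoded genes with rRNA and Gm23935 taken out, only protein-coding genes, a replicate block, and each library left out in turn; limma voom and scaling by recovered read totals were added after the data were seen. Median-of-ratios scaling changed nothing, since the values carry it. The planned edgeR test was not run; limma voom on the recovered reads was run in its place. Over all genes 3879 were higher and 3388 lower; the lower count was 2208 with a mean of at least 5 FPKM, where 7728 genes were tested, and 2974 to 3219 when a library was left out (higher, 3434 to 3730). Of the members 3 were higher, or 2 with a mean of at least 5 FPKM, where Nfatc1 was not tested, and 4 were lower, or 3 without the libraries named above for Ppp3cb (log2 difference -0.30 without knockdown replicate 1, -0.23 without knockdown replicate 2 and -0.24 without control replicate 3). Ppp3ca ranged from -1.79 to -1.64, Nfat5 from -1.12 to -0.91, Rcan1 from 0.45 to 0.58, Nfatc1 from 0.64 to 0.86 and Nfatc3 from 0.49 to 0.65. In shares of reads, not per length, the difference was -19.3 percentage points for Ppp3ca, 15.6 for Ppp3cb and 3.74 for Ppp3cc, against -22.3, 13.1 and 9.15 in FPKM. With a mean of at least 5 FPKM, 2 of 5 beta cell targets and 3 of 6 NFAT5 targets were higher. Correlations of deviations were -0.0107 to 0.159 for same-numbered libraries of the groups and -0.177 to 0.133 for other-numbered ones. These ranges overlap, and so few pairs cannot decide whether the libraries were paired. With the replicate block 3919 genes were higher and 3444 lower, and of the members 3 and 4. Precision is limited by 3 libraries a group.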
